A study of Mus musculus with 6 samples.

Results

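Hepatocyte growth factor (Hgf), its receptor tyrosine kinase Met, the serine proteases that cleave Hgf or its activators, and the 2 Kunitz-type inhibitors of those proteases were followed in whole prostates of 4-week-old mice. The 9 genes (Hgf, Met, Hgfac, Hpn, St14, Prss8, Spint1, Spint2 and Plau) were listed by name out of 19938 genes with a probe set of a single gene symbol. They were chosen by name, with earlier results of these arrays known, the rise of Hgf among them, so the values of that same comparison, selected on in part, are given as a description. Each of the 9 had 1 probe set, so the choice of the brightest probe set per gene selected nothing here. The mice were 3 AR3 transgenic animals (AR3Tg) and 3 wild-type littermates (WT), with 1 array of total prostate RNA per mouse. AR3 is a splice form of the androgen receptor that lacks the ligand-binding domain. The labels do not state the promoter or strain of the transgenic line, and no group carried a further allele or treatment. The series asked which genes differ between AR3Tg and WT prostates at this age.

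Hgf is secreted as an inactive single chain, mainly by stromal cells, and binds Met on neighbouring epithelium once a serine protease has cut it into a disulfide-linked pair of chains. Active Hgf drives epithelial growth, motility and branching, and in the prostate it is known as a signal from stroma to epithelium. Cleavage is done by the secreted activator Hgfac and by the membrane-anchored proteases hepsin (Hpn) and matriptase (St14), while Spint1 and Spint2 block them. RNA levels on these arrays do not show how much Hgf protein was cleaved.

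The probe sets summarise transcripts, not sequence variants, so the sequences shown here are those at which transcription of these genes starts. RefSeq windows of 300 bases, from 250 before to 50 after an annotated start (GRCm38.p6), were found by symbol for 6 of the 9 genes, 8 windows in all. The genes found were Hgf and Hpn, with 2 starts each, and Hgfac, Met, Spint1 and Spint2. Both Hgf starts are printed because Hgf was the called gene, and Met and Spint1 for contrast, 5′ to 3′ in the sense of the gene. Capitals mark matches on either strand to an androgen response hexamer (AGAACA) or a GC box (GGGCGG).
Hgf, chr5:16553245-16553544, plus strand: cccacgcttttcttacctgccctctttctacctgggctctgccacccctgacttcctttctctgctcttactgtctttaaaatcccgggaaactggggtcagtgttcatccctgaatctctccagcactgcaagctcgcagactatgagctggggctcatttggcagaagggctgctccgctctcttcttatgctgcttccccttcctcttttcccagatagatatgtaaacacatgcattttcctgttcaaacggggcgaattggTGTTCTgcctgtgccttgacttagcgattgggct
Hgf, chr5:16553651-16553950, plus strand: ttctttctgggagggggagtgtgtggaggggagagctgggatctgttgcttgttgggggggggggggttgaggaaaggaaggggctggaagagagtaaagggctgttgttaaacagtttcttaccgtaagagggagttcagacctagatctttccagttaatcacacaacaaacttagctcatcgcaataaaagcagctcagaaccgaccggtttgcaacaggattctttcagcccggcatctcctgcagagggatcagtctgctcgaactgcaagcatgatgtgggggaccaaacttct
Met, chr6:17463707-17464006, plus strand: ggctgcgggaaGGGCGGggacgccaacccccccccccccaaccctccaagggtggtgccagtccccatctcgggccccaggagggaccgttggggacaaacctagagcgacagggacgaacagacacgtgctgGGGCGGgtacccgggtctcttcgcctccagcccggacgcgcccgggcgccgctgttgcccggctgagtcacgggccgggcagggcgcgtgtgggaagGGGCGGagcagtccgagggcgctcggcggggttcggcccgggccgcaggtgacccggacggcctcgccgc
Spint1, chr2:119237110-119237409, plus strand: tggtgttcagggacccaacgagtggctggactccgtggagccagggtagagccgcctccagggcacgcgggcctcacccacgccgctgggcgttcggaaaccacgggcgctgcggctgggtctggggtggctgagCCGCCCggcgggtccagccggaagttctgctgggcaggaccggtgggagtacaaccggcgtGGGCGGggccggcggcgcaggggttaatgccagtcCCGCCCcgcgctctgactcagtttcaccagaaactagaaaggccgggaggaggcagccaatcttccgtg

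The upstream Hgf window held 1 hexamer, at base 267 of the window, and the downstream window held none. Hgfac held 1 hexamer as well, at base 148, and the other 5 windows held none. The hexamer occurs in 19.0% of the 32851 RefSeq windows of this length, and the full palindromic element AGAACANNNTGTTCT, found in none of the 8, occurs in 0.0091%. GC boxes set the windows apart: Met, Spint1, Spint2 and the Hpn window at chr7:31115277-31115576 held 3 each, and both Hgf windows, Hgfac and the other Hpn window held none. At least 1 GC box occurs in 35.7% of all windows and 3 or more in 10.7%. The motif TATAAA was in none of the 8 windows and in 13.6% of all windows. The share of G and C was 75.7% in the Met window and 51.3% in each Hgf window. These matches describe letters in a window and do not show binding.

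Hgf was higher in AR3Tg prostates, and it was the only one of the 9 genes past an adjusted p of 0.05 (limma over 28944 probe sets). Of the 28944 probe sets 1.47%, and of all 19938 genes 1.64%, passed that threshold, 1.18% as higher and 0.456% as lower in AR3Tg. The 1 call among 9 genes is set beside that share with nothing read from it, because the call on Hgf was known when the genes were listed. The changes of 8 of the 9 genes were positive, against 53.9% of all genes, and their median log2 change was 0.17, against 0.013 over all genes. AR3Tg and WT values did not overlap for 5 genes (Hgf, Met, St14, Spint1 and Spint2), each higher in AR3Tg. Without regard to the test, 10.5% of all genes were higher and 8.61% lower in AR3Tg without overlap, or 19.1% in all. At an unadjusted p of 0.05 the count was 3 of 9 (Hgf, Met and St14), each higher in AR3Tg. Of all genes, 6.91% passed it as higher and 12.2% in either direction.

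**Figure D1:**
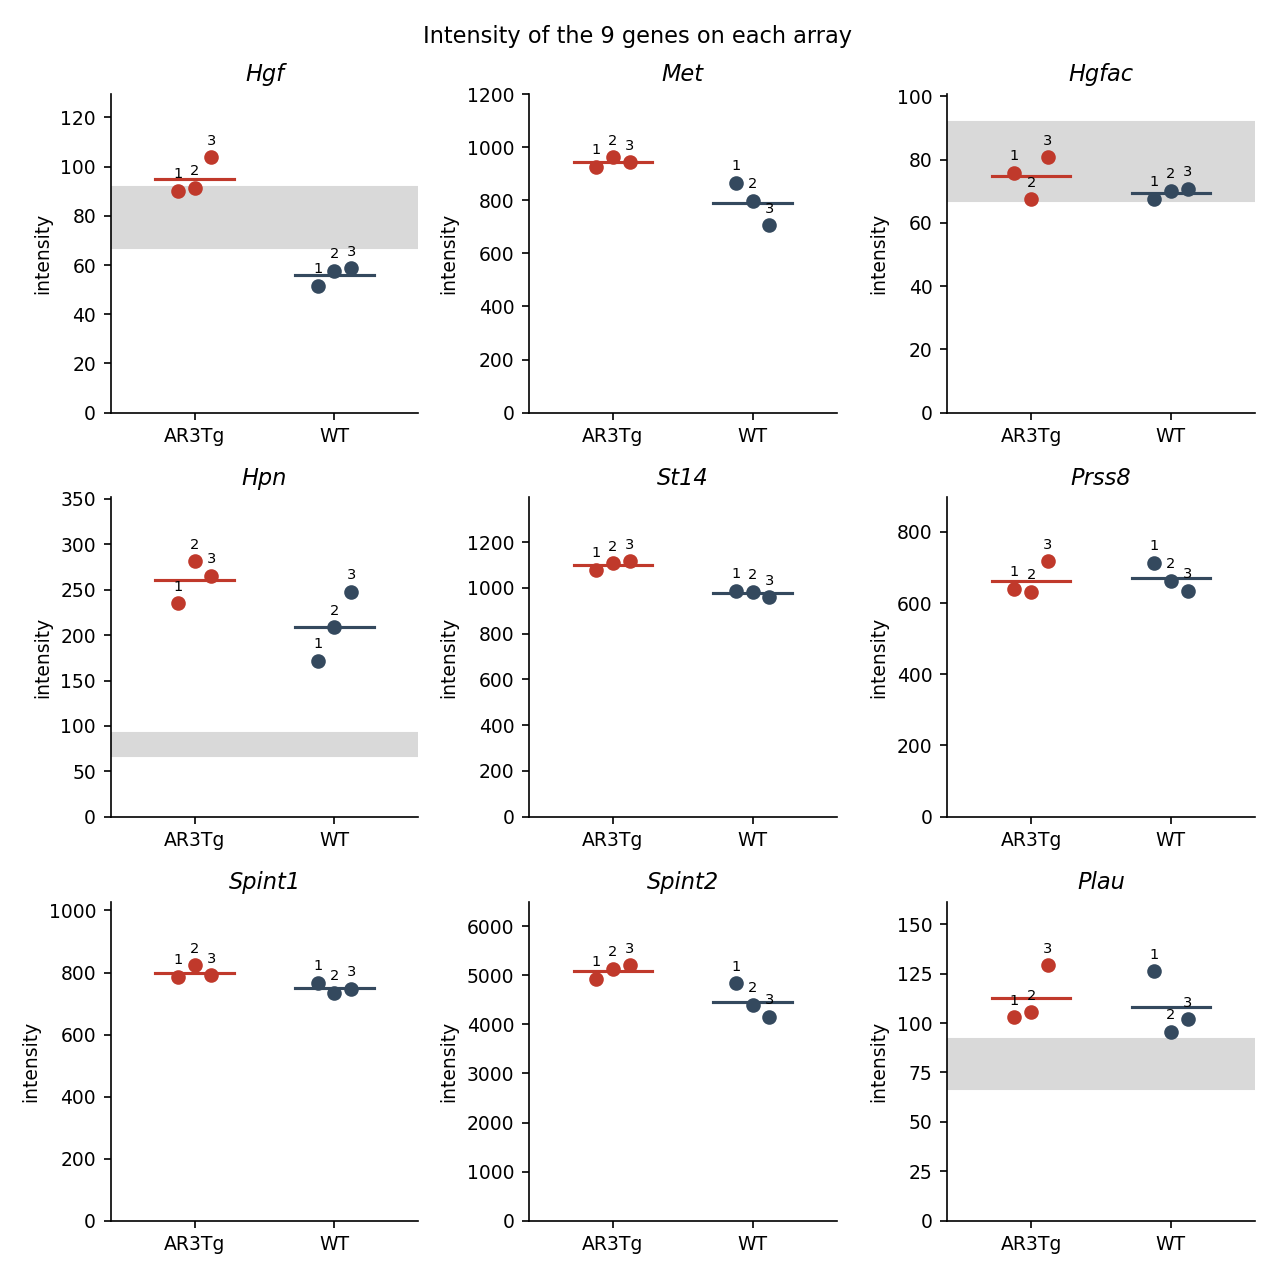
Deposited intensity (linear scale from 0) of the 9 genes on each array, AR3Tg left and WT right, with the mouse number at each point and a bar at the group mean. The grey band, drawn for the dimmer genes, is the range over arrays of the 95th percentile of olfactory receptor probe sets, 66.9 to 91.9. Hgf lies below it in all 3 WT mice, within it in AR3Tg replicates 1 and 2, and above it in AR3Tg replicate 3. Hgfac lies within it in all 6 mice.

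The ligand Hgf had intensities of 90.3, 91.4 and 104 in AR3Tg replicates 1, 2 and 3, against 51.5, 57.7 and 58.8 in WT replicates 1, 2 and 3. Every AR3Tg mouse lay above every WT mouse. The means were 95.2 ± 7.47 in AR3Tg and 56.0 ± 3.95 in WT (SD, n = 3 each), a ratio of mean intensities of 1.70. On the log2(intensity + 16) scale used for all tests the change was 0.63 ± 0.09 (SE), with a 95% interval of 0.43 to 0.82 and a limma adjusted p of 0.011. Of all genes, 98.9% had a smaller log2 change than Hgf.

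Hgf was a dim gene, and its WT signal was not distinguished from background. Olfactory receptor genes, 1035 probe sets taken as mostly silent in prostate, served as a scale. Not all of the probe sets were dim, since even Met exceeded 99.9% and not all of them on every array. Hgf exceeded 95.9%, 96.7% and 97.7% of them on AR3Tg arrays 1, 2 and 3, against 88.8%, 88.0% and 83.9% on WT arrays 1, 2 and 3. Thus Hgf lay just above the 95th percentile of that scale in each AR3Tg mouse and below it in each WT mouse. With added constants of 1 and 64 in place of 16, the log2 change of Hgf was 0.76 and 0.41, and it was called with both. Leaving out the dimmest 40% of probe sets removed Hgf from testing. The call was lost without AR3Tg replicate 2 (adjusted p 0.058), AR3Tg replicate 3 (0.070) or WT replicate 2 (0.056), with log2 changes of 0.65, 0.57 and 0.64.

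**Figure D2:**
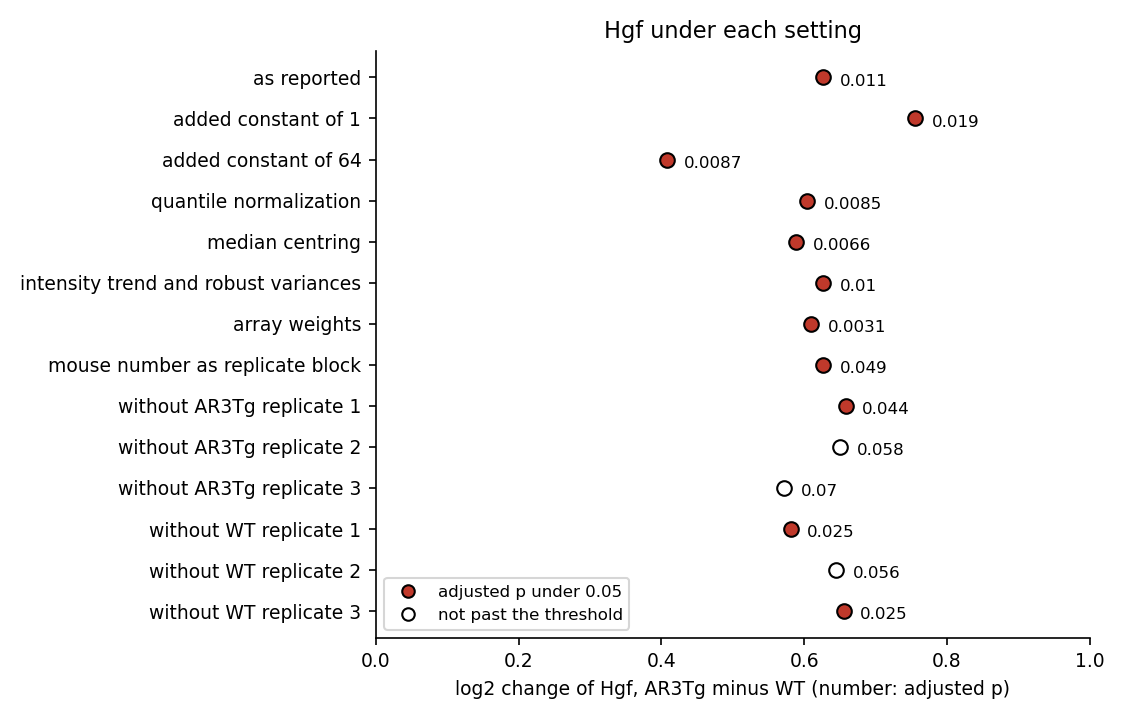
Log2 change of Hgf, AR3Tg minus WT, under each of the 14 settings in which it was tested, with the limma adjusted p printed beside each point; filled points are past 0.05. The change stays between 0.41 and 0.76, and 3 of the 6 fits that leave out an array are not past the threshold.

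The receptor Met was bright, with intensities of 926, 962 and 943 in AR3Tg replicates 1, 2 and 3, against 866, 798 and 706 in WT replicates 1, 2 and 3. The genotypes did not overlap, and the WT mice spread more widely. The means were 943 ± 18.0 in AR3Tg and 790.1 ± 80.3 in WT (SD, n = 3 each), and the log2 change was 0.26 ± 0.09 (SE) with a 95% interval of 0.04 to 0.47. Met did not pass the threshold over all probe sets (adjusted p 0.32), and in none of the 14 alternatives tried was it called, with adjusted p between 0.086 and 0.65.

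Of the proteases that activate Hgf, none was called. Hgfac, the secreted activator made chiefly by liver, had 75.9, 67.4 and 80.7 in AR3Tg replicates 1, 2 and 3, against 67.6, 70.2 and 70.8 in WT replicates 1, 2 and 3. These values overlapped and lay within the range of the olfactory receptor scale (log2 change 0.08, 95% interval −0.11 to 0.27, adjusted p 0.75). Hpn had 235, 281 and 265 in AR3Tg, against 172, 208.5 and 248 in WT, in order of replicate number. WT replicate 3 lay above AR3Tg replicate 1, so the genotypes overlapped. Its log2 change of 0.31 ± 0.13 (SE) had the widest interval of the 9 genes, −0.0036 to 0.62, with an adjusted p of 0.41.

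St14, an epithelial membrane protease that cleaves Hgf and prostasin, was bright and varied little within each genotype. It had 1079, 1107 and 1116 in AR3Tg replicates 1, 2 and 3, against 987, 983 and 958 in WT replicates 1, 2 and 3, with no overlap. The log2 change was 0.17 ± 0.07 (SE), with a 95% interval of 0.01 to 0.33 and an adjusted p of 0.37. Prss8 (prostasin), a membrane-tethered partner of St14 that also cleaves the epithelial sodium channel, had 640.3, 632 and 717 in AR3Tg, against 713, 662.5 and 634 in WT. The genotypes lay over each other, and the 95% interval of its log2 change, −0.22 to 0.19, corresponds to 0.861-fold to 1.14-fold on this scale (log2 change −0.015, adjusted p 0.97). Plau, the urokinase that activates plasminogen and is reported to cleave Hgf, had 103, 105.5 and 129 in AR3Tg, against 126, 95.5 and 102 in WT. One mouse of each genotype stood higher than the others, and the log2 change was 0.06 with an interval of −0.23 to 0.34 (adjusted p 0.90). Plau was dim, above 97.3% to 98.5% of olfactory receptor probe sets in AR3Tg and 96.0% to 99.1% in WT.

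The Kunitz-type inhibitors were not called either. Spint1, which inhibits Hgfac, Hpn and St14 on the cell surface, had 786, 823 and 791 in AR3Tg replicates 1, 2 and 3, against 767, 735 and 747 in WT replicates 1, 2 and 3. The genotypes did not overlap, but AR3Tg replicate 1 and WT replicate 1 lay close together, and the log2 change was 0.09 ± 0.07 (SE; 95% interval −0.07 to 0.25, adjusted p 0.66). Spint2, a broader inhibitor of the same proteases and of prostasin, had 4934, 5140.2 and 5205 in AR3Tg, against 4838, 4397 and 4160.1 in WT. All AR3Tg values were above all WT values, by a narrow margin for replicate 1 of each genotype. Its log2 change was 0.19 ± 0.08 (SE; 95% interval −0.0018 to 0.39, adjusted p 0.41).

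**Figure D3:**
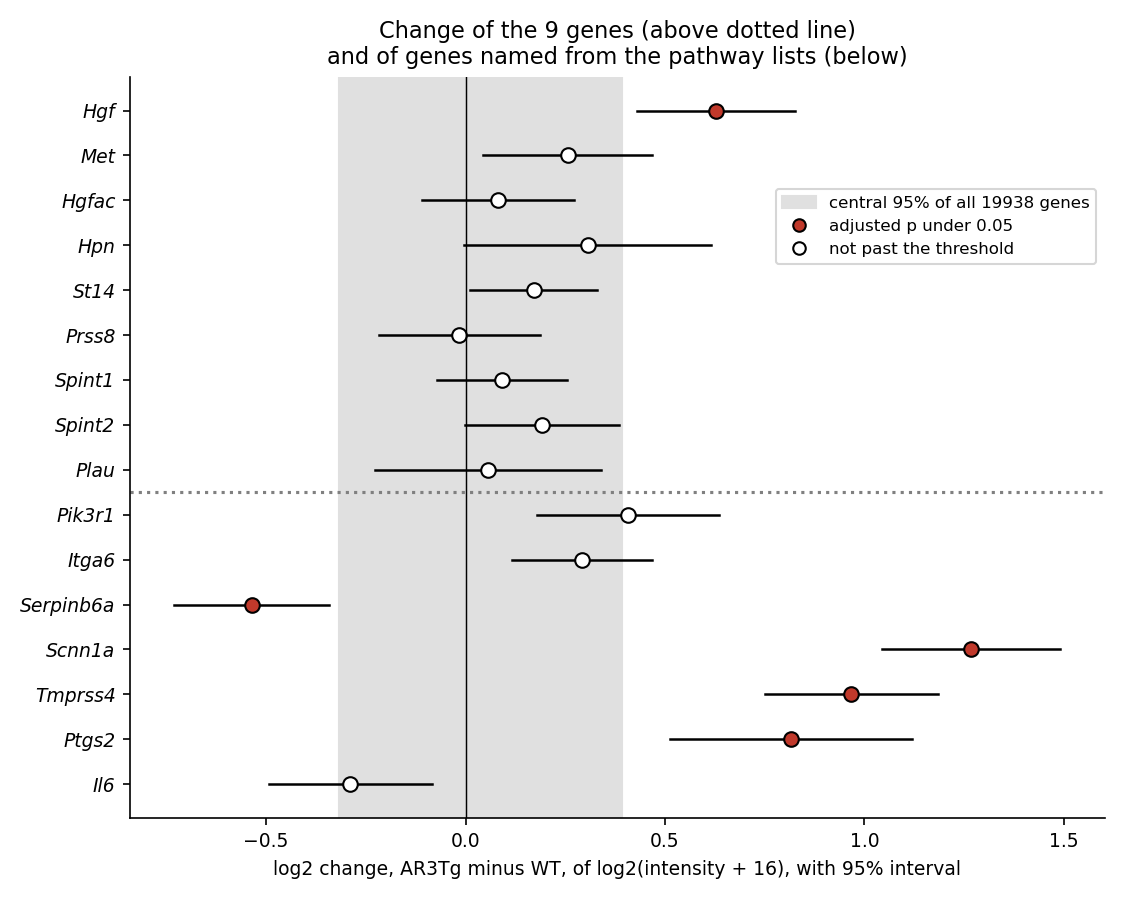
Log2 change, AR3Tg minus WT, with the 95% interval of the limma fit, for the 9 genes above the dotted line and the genes named from 6 pathway lists below it; the grey band holds the central 95% of all 19938 genes. Hgf is the only one of the 9 to the right of the band with a filled point, and Scnn1a, Tmprss4, Ptgs2 and Serpinb6a are the filled points among the others.

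Differences between pairs of probe sets within an array show unequal change and cancel effects common to the array. Over 9 such differences the smallest two-sided p that an exact permutation test of 3 against 3 can give is 0.1, so none could pass 0.05, and 4 reached that smallest value (adjusted over the 9 pairs, 0.225). The log2 difference of Hgf over Met was −3.15, −3.19 and −3.00 in AR3Tg replicates 1, 2 and 3, against −3.71, −3.47 and −3.27 in WT replicates 1, 2 and 3. It was 0.37 higher in AR3Tg, without overlap, but the WT values of Hgf in it lay below the olfactory receptor scale, so its size depends on the added constant. Of the others that reached the smallest p, St14 over Spint1 was 0.08 higher in AR3Tg. Prss8 over Spint2 was lower in AR3Tg, at −2.91 ± 0.08 against −2.71 ± 0.03 in WT (SD, n = 3 each, log2, exact p 0.1). The differences of St14 over Spint2, Hpn over Spint1, Hpn over Spint2 and Hgfac over Spint1 overlapped between genotypes, with exact p between 0.2 and 0.9.

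Because Hgf is known from stromal cells and the other membrane proteins from epithelium, marker lists were read on the same arrays. The 20 epithelial markers were all measured, none was at 0 or at the olfactory receptor scale on every array, and Krt8 averaged 2400.1 in AR3Tg and 2174 in WT. The androgen-driven secretory gene Pbsn, which marks prostate, averaged 8078 in AR3Tg and 9343 in WT. The 8 measured secretory prostate genes summed to 41171 to 44815 in AR3Tg and 52590.3 to 56221 in WT, and 3 of them were called, each lower. Fewer cells of a type and less RNA per cell cannot be told apart in whole tissue.

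The summed intensity of the 15 fibroblast genes was 6873 to 9677 in AR3Tg and 5265 to 7378 in WT, with 14 of 15 changes positive, 0 genes called by limma (6 at an unadjusted p under 0.05), none at 0 and a median log2 change of 0.39. WT replicate 1 had the highest fibroblast sum of the WT mice (7378, above AR3Tg replicate 1). Its Hgf intensity was the lowest of all 6 mice (51.5), on the array with the lowest median intensity (94.5). Hgf on that array exceeded 88.8% of olfactory receptor probe sets, against 88.0% and 83.9% on WT arrays 2 and 3. Hgf over the mean of the fibroblast list, on the log2 scale, was −1.33, −1.39 and −1.61 in AR3Tg replicates 1, 2 and 3, against −2.11, −1.53 and −1.44 in WT replicates 1, 2 and 3. Those values overlapped, and the difference of 0.25 had an exact permutation p of 0.4. The WT values of Hgf in it lay below the olfactory receptor scale, so its size depends on the added constant. The receptor Pdgfra, a defining fibroblast marker, averaged 271 ± 70.4 in AR3Tg and 164 ± 56.0 in WT (SD, n = 3 each, adjusted p 0.30), with overlap. Vim averaged 640.3 in AR3Tg and 498 in WT, also with overlap. The part of stromal content in the change of Hgf was not tested further.

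Other lists were read in the same way. The summed intensity of 18 myeloid genes was 1487 to 1639 in AR3Tg and 1241 to 1362 in WT, with 9 of the 18 genes at or under the 95th percentile of the olfactory receptor scale on every array. Of these 18 genes 0 were called by limma, with 13 changes positive and 5 negative. The summed intensity of 10 endothelial genes was 1369 to 1445 in AR3Tg and 1098 to 1272 in WT, and the adhesion molecule Cdh5 was the 1 gene called (log2 change 0.93, adjusted p 0.0096). Their part in the change of Hgf was not tested. The 10 smooth muscle genes overlapped, at 14141 to 18843 in AR3Tg and 14890 to 18152 in WT. The 8 seminal vesicle genes summed to 2823 to 10396 in AR3Tg and 267 to 4549 in WT, where the value of 4549 belongs to WT replicate 1. Of these 8 genes 2 were called, both higher: Ceacam10 averaged 932 in AR3Tg and 42.3 in WT (log2 change 4.03, adjusted p 7.4e-07), and Spinkl averaged 672.5 in AR3Tg and 24.7 in WT (4.08, adjusted p 2.8e-04), with both WT means below the olfactory receptor scale. Their part in the change of Hgf was not tested. Of the skeletal muscle, lymphoid, mast cell, adipocyte, urothelial and nerve lists, 0 genes were called by limma, and 0 to 3 in each had an unadjusted p under 0.05. Without WT replicate 1 the log2 change of Hgf was 0.58 (adjusted p 0.025).

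**Figure D4:**
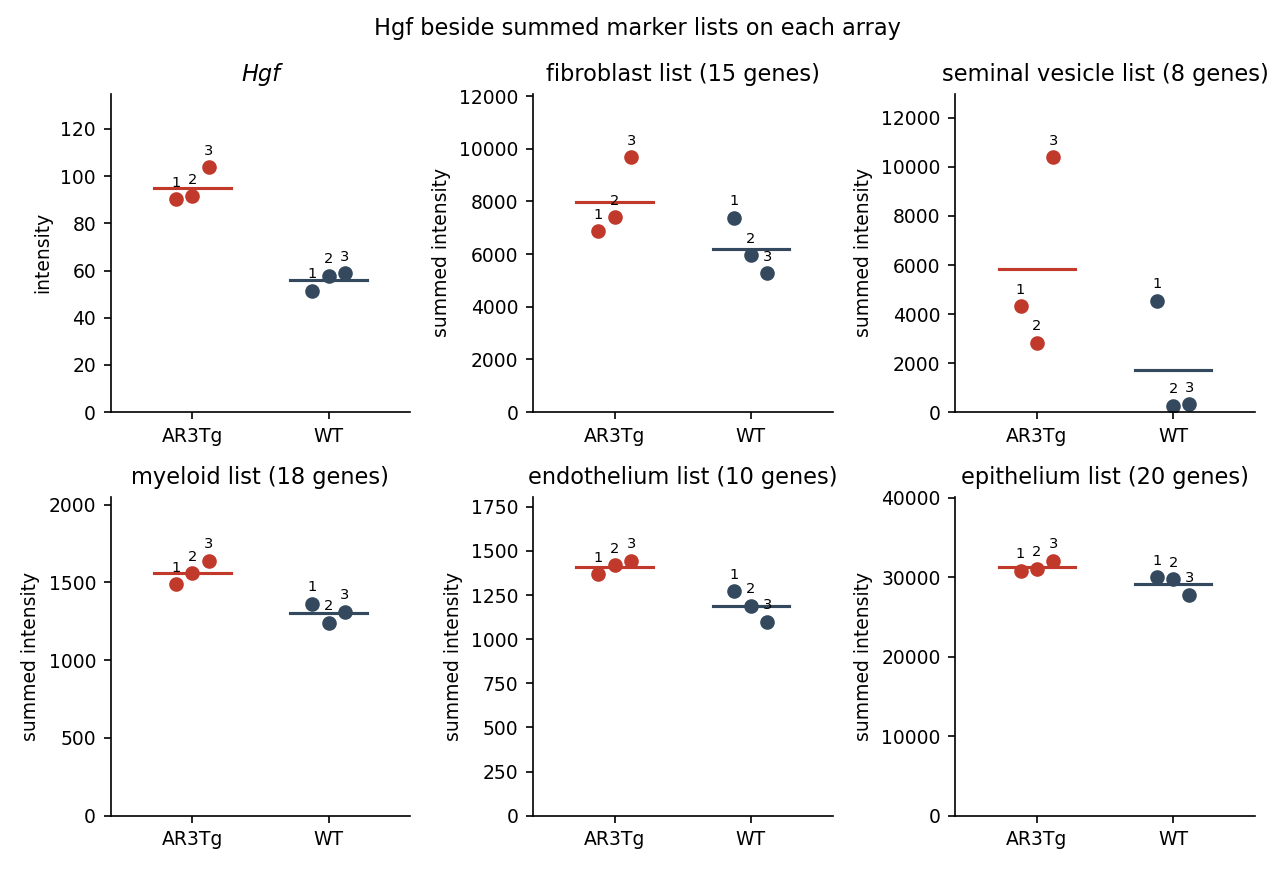
Intensity of Hgf and summed intensities of 5 marker lists on each array (linear scale from 0), AR3Tg left and WT right, with the mouse number at each point and a bar at the mean. The fibroblast and seminal vesicle sums overlap between genotypes, with WT replicate 1 high in both, while the Hgf, myeloid, endothelial and epithelial values do not overlap. As a mean on the log2 scale, the epithelial list does overlap.

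The epithelial list summed to 30781 to 32051 in AR3Tg and 27746 to 29962 in WT, without overlap in the sums. The mean of its log2 values was 10.02, 10.03 and 10.07 in AR3Tg replicates 1, 2 and 3. In WT replicates 1, 2 and 3 it was 9.95, 10.04 and 9.95, so the means overlapped. The median log2 change of the list was 0.05. By limma, 0 of its 20 genes were called (3 at an unadjusted p under 0.05). The adhesion protein Epcam, a substrate of St14, averaged 4068 in AR3Tg and 3554 in WT (log2 change 0.19, adjusted p 0.36), and the keratin Krt18 averaged 2592 in AR3Tg and 2622 in WT. Met over the mean of the epithelial list was −0.14, −0.09 and −0.16 in AR3Tg replicates 1, 2 and 3, against −0.17, −0.37 and −0.45 in WT replicates 1, 2 and 3, on the log2 scale. The genotypes did not overlap in it, although AR3Tg replicate 3 and WT replicate 1 nearly met (difference 0.20, exact permutation p 0.1). The part of epithelial content in the values of Met, St14, Spint1 and Spint2 was not tested further.

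Around the ligand and receptor, 6 lists written from general knowledge of the pathway held 152 symbols, of which 133 were measured. The lists were chosen with earlier results of these arrays known. Their counts, beside shares of all genes, are therefore given as a description, with nothing read from them. Downstream of Met, 22 of 30 listed adaptors and kinases were measured, with 0 called, 4 at an unadjusted p under 0.05 and a median log2 change of −0.0052. The smallest p in that list was that of Pik3r1, the regulatory subunit of phosphoinositide 3-kinase, at 1021 ± 71.9 in AR3Tg and 767 ± 73.4 in WT (SD, n = 3 each). Its log2 change was 0.41 with an adjusted p of 0.13, and it was called with an intensity trend and robust variances (0.021). Of the 24 partner receptors, adhesion partners and negative regulators of Met, all were measured and 0 were called, while 8 had an unadjusted p under 0.05, each with a positive change, against 6.91% of all genes. The smallest p belonged to the laminin receptor subunit Itga6, at 882 ± 34.5 in AR3Tg and 717 ± 30.2 in WT (log2 change 0.29, adjusted p 0.16).

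Among 19 measured genes of plasminogen and Hgf activation and their serpins, 1 was called, and it was lower. The intracellular serpin Serpinb6a fell to 789.7, 790.2 and 777.5 in AR3Tg replicates 1, 2 and 3, against 1057, 1145.5 and 1245 in WT replicates 1, 2 and 3. The genotypes were far apart, and the AR3Tg mice were nearly equal. Its log2 change was −0.54 ± 0.08 (SE, adjusted p 0.022), and the call was lost without any 1 array other than WT replicate 1, at adjusted p between 0.051 and 0.134, and with the mouse number as a block (0.111).

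A further list held other membrane-anchored serine proteases and substrates of St14, Hpn and Prss8. Of its 25 measured genes 2 rose and 0 fell, beside 1.18% and 0.456% of all genes, with a median log2 change of 0.06. Scnn1a, the alpha subunit of the epithelial sodium channel that prostasin activates, had 306, 333 and 310.4 in AR3Tg replicates 1, 2 and 3, against 107, 126 and 134.5 in WT replicates 1, 2 and 3. No mouse of one genotype came near the other. Its log2 change was 1.27 ± 0.10 (SE), with an adjusted p of 5.0e-04, and in all 14 alternatives it was called, with changes between 1.03 and 1.37. Tmprss4, a type II transmembrane serine protease, had 139, 146.5 and 128 in AR3Tg, against 55.2, 65.2 and 67.8 in WT. The WT values lay below the olfactory receptor scale of their own arrays and the AR3Tg values above it. Its log2 change was 0.97 ± 0.09 (SE, adjusted p 0.0017), with 1.13 and 0.67 at added constants of 1 and 64, and all 14 alternatives called it.

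Of 26 measured genes that respond to Met or its MAPK branch, 1 rose and 0 fell, with a median log2 change of 0.13. That gene was Ptgs2, the inducible cyclooxygenase, which had 147, 139 and 151 in AR3Tg replicates 1, 2 and 3, against 59.3, 91.6 and 80.0 in WT replicates 1, 2 and 3. The genotypes did not overlap, and its log2 change was 0.82 ± 0.13 (SE, adjusted p 0.026). WT replicates 1 and 3 lay below the olfactory receptor scale of their own arrays, and the change was 0.94 and 0.58 with added constants of 1 and 64. The call was lost without any AR3Tg replicate or WT replicate 3, at adjusted p up to 0.140, with an added constant of 1 (0.061) and with the mouse number as a block (0.083). Ptgs2 also responds to many stimuli other than Met, as background. Of 17 cytokines and growth factors known to raise or lower Hgf in stromal cells, all were measured, 0 were called and 1 had an unadjusted p under 0.05. That gene was Il6, at 7.80 to 10.4 in AR3Tg and 13.0 to 17.5 in WT, far below the olfactory receptor scale, so its level was not above background in either genotype.

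**Figure D5:**
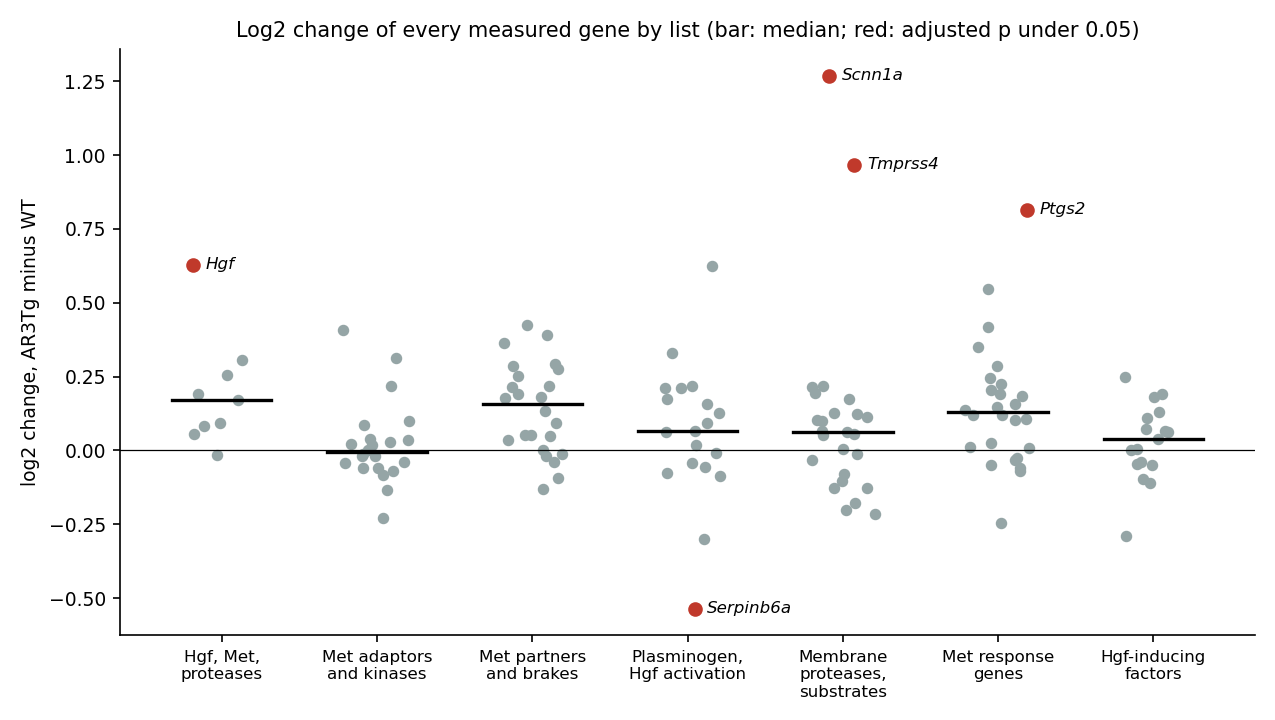
Log2 change, AR3Tg minus WT, of every measured gene of the 9-gene set and of 6 pathway lists, with a bar at the median and red points for an adjusted p under 0.05 (horizontal scatter is only for display). The medians lie between −0.0052 and 0.17, and 5 genes are red, with Serpinb6a the only one below 0.

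The genes whose pattern over the 6 arrays was most like that of Hgf were found by Pearson correlation of log2(intensity + 16) among 11727 genes above the olfactory receptor scale. The 5 highest were Iah1 (r = 0.998), the kinase Map4k4 (0.995), Tcim (0.995), the glycerophosphodiesterase-family gene Gdpd2 (0.995) and Isoc1 (0.994). Of these, Iah1, Tcim and Gdpd2 were called higher in AR3Tg, with log2 changes of 0.46, 1.19 and 1.31. Map4k4 (0.34, adjusted p 0.082) and Isoc1 (0.40, adjusted p 0.065) were not. For Met the 5 were the calcium-binding Pef1 (0.997), Pabpc1l2b (0.996), the kinase Vrk2 (0.995), the adaptor Tab3 (0.995) and Mtdh (0.994). None of these 5 was called, and their log2 changes lay between 0.05 and 0.36. All 6 arrays enter these correlations, which describe shared genotype differences and shared spread between mice together.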

How the data were processed

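Prostate RNA of 3 AR3Tg and 3 WT mice was measured on 1 Affymetrix array each, after DNase treatment and whole-transcript labelling, per the labels' protocols. The deposited intensity values are on a linear scale (0.87 to 21952); how the authors summarised, corrected and normalized them, and with what software, is not given in the sources used here. The values were not normalized again. Of 35512 probe sets, 6568 with identifiers below the gene-level range were left out as controls, from knowledge of the platform. Gene symbols came from the platform annotation; each gene was followed by its brightest probe set, by the mean of the 6 arrays. Median intensity per array was 94.5 to 110.8, and the number of arrays limits the precision.

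Log2(intensity + 16) was tested over 28944 probe sets by a limma fit (3.58.1, lmFit then eBayes, under R 4.3.3), AR3Tg minus WT, two-sided, with no covariate, Benjamini-Hochberg adjustment and a threshold of 0.05. The fit was also run on simulated data, and no result given here rests on that run. No array batch was used. The labels name each sample as a separate mouse. Members and lists were chosen with earlier results of these data known. From each pathway list every called gene was named, up to 4, or the gene with the smallest p where none was called; 1 gene of the naming rule is not reported here. The alternatives tried were other added constants, a filter on the dimmest 40% of probe sets, array weights, an intensity trend together with robust variances, median centring, quantile normalization, a replicate block and leaving out each array. Averaging several probe sets of a gene did not apply.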

Additional observations from a re-analysis of the deposited data

How the results depend on the processing

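Hgf kept its direction in all 13 alternatives that tested it (log2 change 0.41 to 0.76) and its call in 10; without the dimmest 40% of probe sets it was not tested and 0 of the 9 genes were called. Met, Hpn, St14, Spint1 and Spint2 kept their positive sign and were not called in any of 14 alternatives, nor was Hgfac in the 13 that tested it. Prss8 turned positive with array weights (0.0041), and without 1 array its log2 change ran from −0.072 to 0.030. Plau ran from −0.035 to 0.16 without 1 array. The count of probe sets called was 425 as reported, 678 with an intensity trend and robust variances, 1202 with array weights and 234 to 519 without 1 array. Median centring gave 314 higher and 264 lower, against 305 and 120 as reported, and array weights gave 686 and 516. Without 1 array, 0 to 1 of the 9 genes were called, as were 0 to 1 Met partners, 0 to 1 Met response genes and 0 to 2 plasminogen and Hgf activation genes.

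With array weights the calls numbered 1 among Met adaptors, 1 among Met partners, 3 among plasminogen and Hgf activation genes and 2 among Met response genes. With an intensity trend they numbered 1, 1, 2 and 2 in the same lists. Met response genes called were 0 with an added constant of 1 and 2 with a constant of 64, with quantile normalization or without the dimmest probe sets. The mouse number as a replicate block gave 250 probe sets, kept the call on Hgf (adjusted p 0.049), and left 0 calls among Met response genes (Ptgs2, 0.083) and 0 among plasminogen and Hgf activation genes (Serpinb6a, 0.111). Deviations of same-numbered mice correlated at −0.04, 0.05 and −0.16, and 1 of 6 arrays correlated best with its own number, so the numbers were not treated as pairs. The cause of these shifts was not tested, also where the setting removes arrays or probe sets. Hgf, Hgfac, Plau, Tmprss4, Ptgs2 and Il6 lay near or below background in at least 1 genotype, which limits how exactly their changes are known.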

Other observations

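The genes in this section were singled out after their values were seen. The Hgf paralogue Mst1 and its receptor Mst1r, a close relative of Met, were not called. Mst1 averaged 115 ± 14.2 in AR3Tg and 121 ± 22.4 in WT, and Mst1r averaged 89.5 ± 6.24 in AR3Tg and 92.3 ± 7.19 in WT (SD, n = 3 each, limma adjusted p 0.91 for both). Of the 3 epithelial sodium channel subunits that prostasin acts on or that assemble with Scnn1a, only Scnn1a was called. Scnn1b averaged 55.6 ± 1.35 in AR3Tg and 60.9 ± 0.78 in WT (adjusted p 0.60), and Scnn1g averaged 78.9 ± 2.88 in AR3Tg and 71.9 ± 5.99 in WT (adjusted p 0.64). Both lay below the olfactory receptor scale of the same array in every mouse, so neither was distinguished from background. A difference in change between the subunits was not tested.

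Mmp14, a membrane-anchored matrix metalloproteinase, had 394, 415 and 472 in AR3Tg replicates 1, 2 and 3, against 283, 316 and 264 in WT replicates 1, 2 and 3, with no overlap. Its log2 change of 0.55 ± 0.10 (SE) had an adjusted p of 0.0502, just outside the threshold. The urokinase receptor Plaur averaged 56.9 ± 4.44 in AR3Tg and 57.8 ± 10.7 in WT, below the olfactory receptor scale in both genotypes. Tmprss2, an androgen-regulated membrane protease, averaged 979 ± 69.1 in AR3Tg and 1074 ± 122 in WT (adjusted p 0.68).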
